A study of Arabidopsis thaliana with 16 samples.

Results

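The roots of the *cbp20* mutant were compared with those of its Columbia-0 (Col-0) background in air, in plants that were given no ethylene. The 4 libraries of the comparison, 2 for each genotype, were chosen by their labels from the 16 libraries of the study, which holds roots and shoots of both genotypes in air or ethylene. All came from seedlings grown in the dark for 3 days. The air groups received a flow of hydrocarbon-free air over the 4 h in which the other groups received 10 ppm ethylene. Poly(A) RNA was sequenced from directional libraries, and all root libraries were run on lane 6 by their labels. *cbp20* is a single mutant line in the Col-0 background, so that the effect of the mutation and of anything else that sets the line apart cannot be told apart. The authors deposited 1 level for each group of 2 libraries, in FPKM, the number of fragments scaled by transcript length and by mapped fragments. No SD, standard error or test across genotypes could therefore be given, and every difference described here is a difference between 2 pooled values. Sequencing depth is not stated in the labels, the tables or the methods.

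CBP20 is the smaller protein of the cap-binding complex of the nucleus, which sits on the 5′ cap of newly made RNA together with its large partner CBP80, encoded by *ABH1*. In plants the complex takes part in splicing and works with SERRATE, HYL1 and DCL1, the proteins that cut microRNA precursors (pri-miRNAs) into mature microRNAs. Precursors that are not cut can stay in the poly(A) RNA and be counted like mRNA, and mature microRNAs guide ARGONAUTE proteins to the mRNAs they silence.

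*CBP20* (AT5G44200, chr5:17801814-17804130 in the TAIR10 coordinates of the tables) lay at 28.6 FPKM in Col-0 roots in air and at 0.654 FPKM in *cbp20* roots in air. The mutant kept 2.29% of the Col-0 level, and 2.13% in ethylene roots, so that the gene was low in the groups labelled as the mutant. *ABH1* lay at 10.2 FPKM in Col-0 and 9.55 FPKM in *cbp20*, and *SE*, which encodes SERRATE, at 19.2 and 21.2 FPKM.

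Each genotype was normalized by the authors in a table of its own, so the log2 ratio of *cbp20* to Col-0 was centred on its median of 0.04 over the 16111 loci with at least 1 FPKM in both genotypes. A locus was counted as higher or lower at a difference of 2-fold or more. Of the 16111 loci, 756 (4.69%) were higher in *cbp20* and 574 (3.56%) were lower, and 78.8% lay less than 1.5-fold apart, with 11.7% higher and 9.45% lower by 1.5-fold or more. The spread of the ratios narrowed with the level. Among loci between 1 and 3 FPKM 16.1% were 2-fold or more apart, and among loci of 100 FPKM or more 3.71%. The same genotypes in ethylene roots, which are other libraries normalized in the same 2 tables, gave a further look at each locus. Of the 756 higher loci 658 had a ratio there and 395 of them (60.0%) were also 1.5-fold or more higher, where 10.7% of all loci with both ratios were. Of the 574 lower loci 516 had a ratio there and 297 (57.6%) were also 1.5-fold or more lower, where 10.6% of all loci were. In the opposite direction 26 of the higher and 32 of the lower loci lay 2-fold or more apart in ethylene roots. The share of loci 2-fold or more apart ranged from 7.38% on chromosome 5 to 9.35% on chromosome 2.

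**Figure D1:**
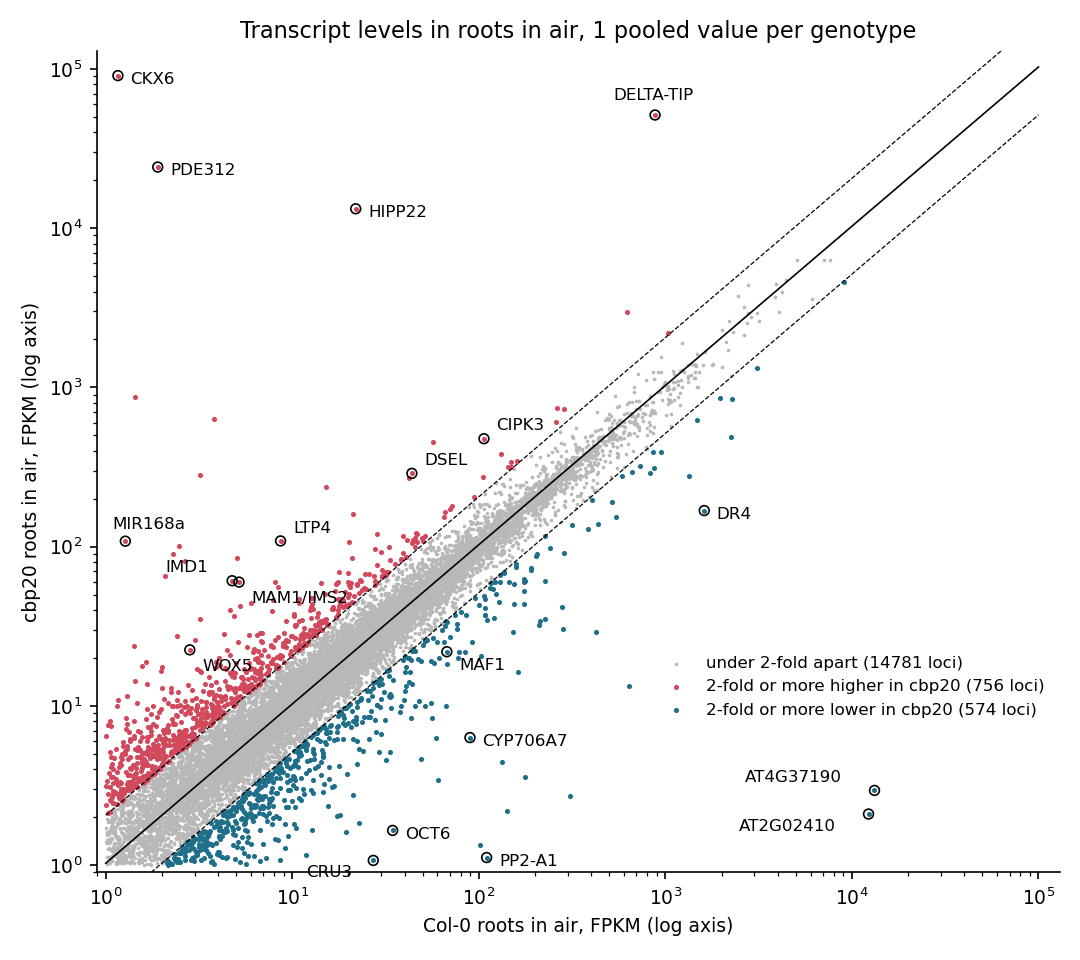
Levels of the 16111 loci with a ratio, Col-0 roots in air on the x axis and *cbp20* roots in air on the y axis, both in FPKM on log axes, with 1 pooled value per genotype. The solid line is the median ratio and the dashed lines lie 2-fold above and below it; 756 loci lie above and 574 below the dashed lines, and the circled far points *CKX6*, *PDE312*, *HIPP22* and AT4G37190 were not repeated in ethylene roots.

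The microRNA precursors had a median log2 ratio of 1.31 over the 15 with at least 1 FPKM in both genotypes, of which 9 were higher in *cbp20* and 2 lower. With at least 10 FPKM in both genotypes 1 precursor was left as higher, and the median was 0.63. The mature microRNAs whose precursors were 2-fold or more higher in *cbp20* roots both in air and in ethylene are shown here from the RefSeq TAIR10.1 genome and annotation. This choice is wider than the 15 above, since it asks for 1 FPKM in either genotype and takes a level of 0 as lower. It therefore includes *MIR158a*, *MIR169b*, *MIR396a* and *MIR403*, which were listed at 0 in Col-0 air roots. The seed (bases 2 to 8) is in capitals, so that microRNAs that share a seed can be told from those that do not.
miR156a-5p and miR156c-5p: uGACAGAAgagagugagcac
miR158a-3p: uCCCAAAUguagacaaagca
miR160b and miR160c-5p: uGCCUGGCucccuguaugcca
miR164b-5p: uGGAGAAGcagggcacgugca
miR167a-5p: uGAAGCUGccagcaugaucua
miR168a-5p: uCGCUUGGugcaggucgggaa
miR169b-5p: cAGCCAAGgaugacuugccgg
miR169m: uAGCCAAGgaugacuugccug
miR171a-3p: uGAUUGAGccgcgccaauauc
miR171b-3p and miR171c-3p: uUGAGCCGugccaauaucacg
miR396a-5p: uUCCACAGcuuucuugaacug
miR403-3p: uUAGAUUCacgcacaaacucg
miR408-3p: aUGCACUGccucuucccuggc
miR848: uGACAUGGgacugccuaagcua
The 17 precursors carry 13 different seeds, shared by *MIR156a* and *MIR156c*, by *MIR160b* and *MIR160c*, by *MIR169b* and *MIR169m*, and by *MIR171b* and *MIR171c*.

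Of 161 precursor genes with a level of their own, not joined with other genes, 35 reached 1 FPKM in either genotype in air roots. Of the 35, 7 lay at a locus shared with another named gene. With a level of 0 taken as lower, 27 of the 35 were 2-fold or more higher in *cbp20*, 4 were lower and 4 were neither. Over all 17568 loci with the same minimum 7.96% were higher and 6.07% lower by this rule. Most precursor genes are short, with a median of 138 bases in RefSeq, and FPKM divides few fragments by that length. The other loci under 300 bases gave 39 higher and 31 lower of 96. Among the 13 precursors whose locus in the tables spans 500 bases or more with no other named gene in it, 10 were higher and 1 was lower, and all 10 were higher in ethylene roots too. Among the 15 at shorter loci 13 were higher, of which 3 were higher in ethylene roots too, 2 were lower there and 7 were under 1 FPKM in both genotypes.

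*MIR168a*, the precursor of the microRNA that silences *AGO1*, was far above its Col-0 level in *cbp20*. Its locus (chr4:10578593-10579747) lay at 1.27 FPKM in Col-0 and 108 FPKM in *cbp20* in air roots, a centred log2 ratio of 6.37. In ethylene roots the levels were 1.17 and 131 FPKM, in air shoots 4.54 and 57.5 FPKM, and in ethylene shoots 5.46 and 41.1 FPKM. All 4 *cbp20* groups lay above all 4 Col-0 groups. *MIR403*, the precursor of the microRNA that silences *AGO2*, was listed at 0 in all 4 Col-0 groups and at 94.3, 77.7, 50.4 and 14.2 FPKM in *cbp20* air roots, ethylene roots, air shoots and ethylene shoots. *MIR396a*, whose microRNA silences growth-regulating factor (*GRF*) genes, was likewise listed at 0 in the Col-0 groups and at 29.2, 40.9, 32.9 and 73.0 FPKM in the *cbp20* groups. The loci of *MIR403* and *MIR396a* span 135 and 151 bases in the tables, and a level listed at 0 can be a failed estimate at such short loci.

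The precursors of microRNAs against auxin response factors and *SPL* genes were higher as well. *MIR160b* lay at 2.26 FPKM in Col-0 and 10.0 FPKM in *cbp20* air roots and *MIR160c*, at a locus that it shares with other genes, at 1.98 and 16.6 FPKM. *MIR167a* lay at 0.308 and 5.62 FPKM. *MIR156c* lay at 6.004 and 43.98 FPKM, with 12.3 and 74.1 FPKM in ethylene roots. These *MIR160* loci and *MIR156c* were 2-fold or more higher in *cbp20* in all 4 pairs of groups.

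The family against *HAM* (*SCL6*) genes, which keep stem cells undifferentiated, gave *MIR171b* at 2.16 FPKM in Col-0 and 10.4 FPKM in *cbp20* and *MIR171c* at 0.577 and 36.7 FPKM. *MIR164b*, whose microRNA acts on NAC genes, lay at 0.775 and 15.0 FPKM. *MIR169m*, whose microRNA acts on nuclear factor Y genes, lay at 1.43 and 14.4 FPKM. *MIR408*, of the copper response, lay at 4.80 and 10.6 FPKM, at a locus that it shares with other genes. For each of these the *cbp20* level was also the higher of the pair in ethylene roots.

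Not every precursor lay above Col-0. *MIR319b*, whose microRNA acts on *TCP* and *MYB* genes, lay at 8.88 FPKM in Col-0 and 3.83 FPKM in *cbp20* air roots, but at 8.34 and 72.6 FPKM in ethylene roots. *MIR163* was lower in *cbp20* in air roots, at 5.79 and 1.51 FPKM, and in ethylene roots, at 2.48 and 0.543 FPKM. *MIR414* lay at 109 and 119 FPKM and *MIR162a* at 16.1 and 31.3 FPKM, less than 2-fold apart. *MIR838*, at 12.7 and 0 FPKM, lies inside the *DCL1* gene, so its reads cannot be told from those of *DCL1*. *MIR852*, also at a shared locus, lay at 45.0 and 0 FPKM and was listed at 0 in the other 6 groups.

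**Figure D2:**
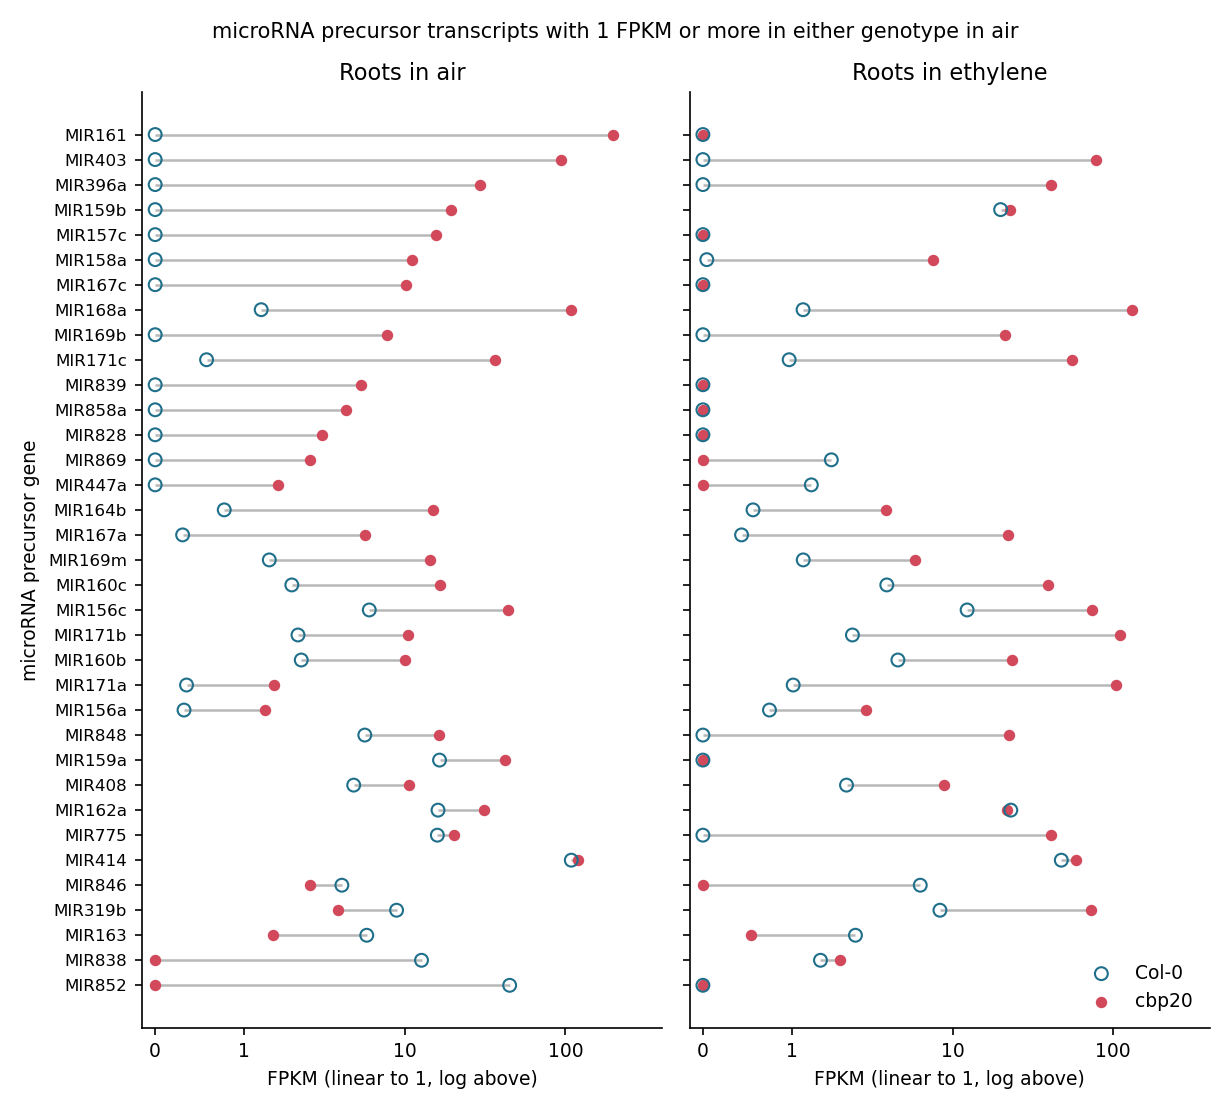
FPKM of the 35 microRNA precursors with 1 FPKM or more in either genotype in air roots (left) and of the same precursors in ethylene roots (right), on an axis that is linear up to 1 FPKM and logarithmic above. Open circles are Col-0, filled circles *cbp20*, each 1 pooled value; *MIR168a* went from 1.27 to 108 FPKM in air and from 1.17 to 131 FPKM in ethylene, whereas *MIR319b* changed sides.

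Most of the listed genes that make and use microRNAs lay less than 2-fold apart between the genotypes. Of the 19 members of the cap-binding and microRNA machinery list with a ratio, 1 was higher and 2 were lower, and the median log2 ratio was 0.10. Of all loci 4.69% were higher and 3.56% lower, and nothing is read from counts this small. *AGO2* was the higher one, at 8.56 FPKM in Col-0 and 20.9 FPKM in *cbp20* in air roots, at 7.96 and 19.4 FPKM in ethylene roots, and at 8.204 and 17.1 FPKM in air shoots. All 4 *cbp20* levels lay above all 4 Col-0 levels. *AGO1* lay at 39.2 and 43.9 FPKM. *DCL1*, the dicer of the microRNA pathway, lay at 2.53 and 5.01 FPKM in air roots, just under 2-fold apart, and at 5.45 and 6.16 FPKM in ethylene roots. *HYL1* was lower in *cbp20* air roots, at 4.15 and 1.89 FPKM, and higher in ethylene roots, at 1.82 and 3.49 FPKM. *SDN1*, an exonuclease that degrades microRNAs, lay at 2.35 and 1.08 FPKM in air roots and at 2.21 and 1.29 FPKM in ethylene roots.

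Target sites of 5 of these microRNAs are shown as the best ungapped match in the RefSeq mRNA, with the bases opposite the seed in capitals, since the levels of the targets differed in their response while the precursors of their microRNAs were all higher.
*AGO1* for miR168a (coding sequence, chr1:17891529-17891549, minus strand): uucccgagcugcaUCAAGCUa
*AGO2* for miR403 (3′ UTR, chr1:11185223-11185243, plus strand): ggaguuugugcguGAAUCUAa
*SPL10* for miR156 (coding sequence, chr1:9505541-9505560, minus strand): gugcucucucucUUCUGUCa
*ARF10* for miR160 (coding sequence, chr2:12115741-12115761, plus strand): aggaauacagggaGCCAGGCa
*HAM1* for miR171 (coding sequence, chr2:18619131-18619151, minus strand): agggauauuggcgCGGCUCAa
These coordinates are those of TAIR10.1. A match is a description of the letters and not a measured cleavage site.

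Of the 80 conserved microRNA targets listed, 63 had a ratio. Of these 10 were higher in *cbp20* and 1 was lower, 47 had a ratio above 0 and 16 below it, against 4.69% of all loci higher and 3.56% lower. The median log2 ratio was 0.25, where the median of all loci is 0 by construction. In ethylene roots the median was 0.04, with 4 of 62 targets higher and 1 lower. Among targets with at least 10 FPKM in both genotypes the median in air roots was 0.040 and 0 were higher. Of the families with more than 1 measured target miR408, at 1.14, and miR396, at 1.101, had the highest medians in air roots. In ethylene roots their medians were 0.37 and 0.69. All 5 measured *GRF* genes of miR396 had ratios above 0 in air roots. *GRF1* (AT2G22840) lay at 7.88 FPKM in Col-0 and 19.8 FPKM in *cbp20* air roots and at 10.2 and 29.0 FPKM in ethylene roots. *GRF9* (AT2G45480) lay at 2.53 and 6.88 FPKM in air and at 0.852 and 4.40 FPKM in ethylene. *GRF2* lay at 1.54 and 3.39 FPKM and *GRF3*, under 2-fold apart, at 2.46 and 4.88 FPKM.

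For miR408 3 of 4 measured targets were higher, the copper proteins *ARPN* at 8.15 FPKM in Col-0 and 17.42 FPKM in *cbp20*, *LAC12* at 2.18 and 6.15 FPKM and *LAC13* at 5.50 and 13.2 FPKM. All 7 measured nuclear factor Y genes of miR169 had ratios above 0, with *NF-YA9* at 3.61 and 7.84 FPKM and a family median of 0.56. *SPL10* lay at 3.21 and 7.08 FPKM in air roots but at 5.43 and 5.92 FPKM in ethylene roots. *SPL11* lay at 2.28 and 89.8 FPKM, a single high value, since its 2 levels in ethylene roots were 3.59 and 3.24 FPKM. The lower target was the laccase *LAC2*, a target of miR397, at 15.9 and 6.82 FPKM in air roots and 32.3 and 15.68 FPKM in ethylene roots.

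Other families lay near their Col-0 levels. The 3 measured miR160 targets had a median of 0.02, with *ARF10* at 13.9 and 15.5 FPKM and *ARF17* at 5.93 and 6.16 FPKM, and the 5 class III homeodomain genes of miR165/miR166 a median of 0.03. The 4 auxin receptor genes of miR393 had a median of -0.08, with *TIR1* at 43.5 and 44.1 FPKM. Of the miR171 targets *HAM1* (AT2G45160) lay at 7.90 and 12.3 FPKM and *HAM3* at 22.03 and 20.04 FPKM. The locus of *MYB33*, a target of miR159 and miR319 that is joined with *GPAT7*, lay at 22.4 and 28.2 FPKM. Of the *TAS* transcripts, which microRNAs cut to make trans-acting small RNAs, 4 had a ratio. *TAS1A* was lower in *cbp20* air roots, at 22.3 and 4.29 FPKM, and lay at 6.995 and 9.74 FPKM in ethylene roots.

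Among repressors and integrators of flowering *FLC* and *MAF1* lay below Col-0, and the other 3 loci with a ratio were less than 2-fold apart. Of the 7 loci listed 4 had a ratio, 1 of them lower and none higher, with a median of -0.16. *FLC* (AT5G10140, chr5:3173497-3179448), the MADS-box gene that holds back flowering until after winter, lay at 27.5 FPKM in Col-0 and 0.018 FPKM in *cbp20* air roots. The pairs were 29.3 and 0 FPKM in ethylene roots, 20.1 and 0 FPKM in air shoots and 22.8 and 0.0892 FPKM in ethylene shoots, so all *cbp20* groups lay far below all Col-0 groups. Its relative *MAF1* lay at 67.4 and 21.9 FPKM in air roots, 78.8 and 24.9 FPKM in ethylene roots and 43.5 and 13.1 FPKM in air shoots. The locus that joins *MAF2* (also *AGL31*), *MAF3*, *MAF4* and *MAF5* lay at 74.2 and 66.7 FPKM, and *FRI*, an activator of *FLC*, at 2.57 and 3.88 FPKM.

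The methionine-derived (aliphatic) glucosinolate pathway makes defence compounds by lengthening the carbon chain of methionine and then building the glucosinolate core. Of its 16 loci 9 had a ratio, of which 5 were higher in *cbp20* and none was lower, against 4.69% and 3.56% of all loci, with a median log2 ratio of 1.12. *MYB28*, its transcriptional activator, lay at 1.28 FPKM in Col-0 and 7.18 FPKM in *cbp20* air roots. Among the members with a ratio, enzymes of chain lengthening had the highest ratios. The locus that joins *MAM1* and *MAM3* (*MAM1/IMS2*) lay at 5.18 and 59.9 FPKM, and *IMD1*, an isopropylmalate dehydrogenase, at 4.76 and 61.1 FPKM. *IPMI1*, a small subunit of isopropylmalate isomerase, lay at 1.65 and 18.8 FPKM. Its relative *IPMI2*, named after its values had been seen, lay at 1.42 and 23.8 FPKM. In ethylene roots *MAM1/IMS2* lay at 5.03 and 38.3 FPKM and *IMD1* at 3.18 and 29.3 FPKM.

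At the entry and core steps *BCAT4* lay at 0.344 and 8.31 FPKM and *CYP83A1* at 0.163 and 4.92 FPKM, both under 1 FPKM in Col-0 and so outside the count. *BAT5*, a carrier of the chain-elongation intermediates, lay at 3.31 and 7.41 FPKM. The sulfotransferases *SOT17*, at 15.1 and 13.8 FPKM, and *SOT18*, at 29.9 and 28.3 FPKM, were not higher, and neither was *BCAT3*, at 26.5 and 27.0 FPKM. Among the members with at least 10 FPKM in both genotypes the median was -0.041 and 0 were higher. The tryptophan-derived (indole) branch had no such pattern, with 2 higher and 1 lower of 17 loci. Its lower locus joins the methyltransferases *IGMT1* to *IGMT4*, at 543 and 154 FPKM in air roots and 333 and 65.6 FPKM in ethylene roots. Its higher loci *PAD3*, at 6.53 and 21.99 FPKM, and *CYP81F2*, at 5.84 and 27.7 FPKM, lay the other way in ethylene roots, at 9.20 and 1.35 FPKM and at 17.2 and 10.2 FPKM.

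Of the 14072 loci with a ratio in all 4 pairs of groups (root and shoot, air and ethylene), 83 (0.59%) were 2-fold or more higher in *cbp20* in every pair and 46 (0.327%) were lower in every pair. The 4 pairs share no library, but the air and ethylene values of a tissue and genotype come from the same table. Besides *MIR168a*, *MIR160b*, *MAM1/IMS2* and *IMD1*, the 10 with the largest smallest ratio were 6 others. *LTP4*, a lipid transfer protein, lay at 8.65 FPKM in Col-0 and 109 FPKM in *cbp20* air roots. *DSEL*, a lipase of seedling establishment, lay at 43.8 and 289 FPKM, and *CIPK3*, a protein kinase of calcium signalling, at 107 and 476 FPKM. *ETC1*, a small MYB protein of epidermal patterning, lay at 10.2 and 36.8 FPKM. *VIP2* lay at 6.44 and 28.0 FPKM and AT1G13880 at 20.2 and 107 FPKM.

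Among the loci lower in all 4 pairs *DR4*, a drought-repressed gene, lay at 1615 FPKM in Col-0 and 168 FPKM in *cbp20* air roots, at 1680 and 189 FPKM in ethylene roots, and at 275 and 32.0 FPKM in air shoots. AT1G10682 lay at 1335 and 279 FPKM, AT1G64370 at 214 and 33.9 FPKM and AT5G37990 at 155 and 43.4 FPKM. *GSTU25*, a glutathione transferase, lay at 191 and 73.6 FPKM in air roots and 161 and 21.8 FPKM in ethylene roots. The joined locus *CYP714A2/CYP714A1*, cytochrome P450 genes of gibberellin inactivation, lay at 13.8 and 4.22 FPKM. *MAF1*, AT4G14000, AT2G30230 and AT4G02540 complete the 10 lowest.

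**Figure D3:**
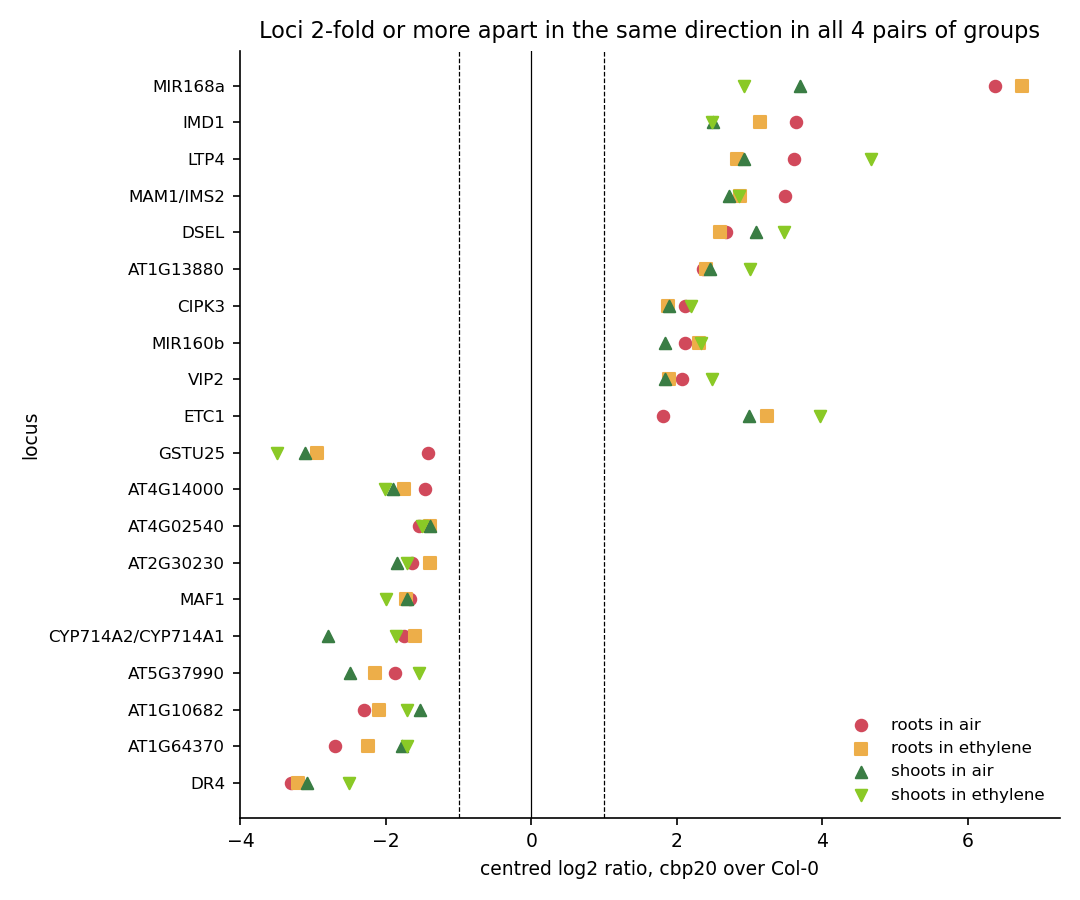
Centred log2 ratios of *cbp20* to Col-0 in air roots, ethylene roots, air shoots and ethylene shoots for the 10 loci that were highest and the 10 that were lowest in all 4 pairs. Each point is the ratio of 2 pooled values; every point lies beyond the dashed 2-fold lines, and *MIR168a* has the highest ratio in air roots, 6.37.

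Of the single-gene loci with at least 10 FPKM in 1 genotype, the largest differences that were repeated in ethylene roots went in both directions. *PP2-A1*, a phloem lectin, lay at 110 FPKM in Col-0 and 1.12 FPKM in *cbp20* air roots and at 122 and 2.16 FPKM in ethylene roots. *OCT6*, a carrier of the organic cation family, lay at 34.5 and 1.65 FPKM, and at 57.8 and 2.43 FPKM in ethylene. *CYP706A7* lay at 89.6 and 6.33 FPKM and AT3G27027 at 163 and 16.4 FPKM. AT3G24535 lay at 22.9 and 1.84 FPKM and AT4G04990 at 11.9 and 1.17 FPKM. Both *PP2-A1* and *OCT6* were also lower in *cbp20* shoots, where *PP2-A1* lay at 48.0 and 0.862 FPKM in air.

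In the other direction AT1G73760 lay at 15.2 FPKM in Col-0 and 239 FPKM in *cbp20* air roots and at 15.6 and 330 FPKM in ethylene roots, but at 13.8 and 12.3 FPKM in air shoots. AT3G21805 lay at 2.65 and 80.8 FPKM, *VAMP726*, a vesicle fusion protein, at 3.19 and 35.2 FPKM and AT1G61970 at 3.00 and 26.0 FPKM. AT1G56310 lay at 3.21 and 281 FPKM in air roots and at 57.0 and 418 FPKM in ethylene roots, so its Col-0 level alone spanned a wide range. AT2G02410, at 12271 FPKM in Col-0 and 2.09 FPKM in *cbp20*, and AT1G26170, at 59.2 and 6.33 FPKM, passed the rule although their 4 root values lay far apart from each other.

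Most listed genes of the root itself lay less than 2-fold apart. Of the 18 root cap, meristem and endodermis genes with a ratio 1 was higher and none lower, against 4.69% and 3.56% of all loci. The Casparian strip gene *CASP1* lay at 638 and 805 FPKM, so that this root marker was high in both groups. The higher gene was *WOX5*, which marks the quiescent centre of the root meristem, at 2.82 and 22.5 FPKM in air roots and 2.101 and 19.7 FPKM in ethylene roots. Among 17 root hair and epidermis genes 15 had ratios above 0, with a median of 0.19, and 1 passed the 2-fold mark. It was *CPC*, a repressor of the non-hair fate genes that promotes hair cells, at 11.1 and 27.7 FPKM, and *RSL4*, a driver of hair growth, lay at 14.3 and 24.2 FPKM. *ETC1*, described with the loci higher in all 4 pairs, is not on this list. With 1 higher locus each, nothing is read from the counts of the root cap and root hair lists. The 18 cell cycle and replication genes had a median of -0.23, 15 of them below 0 and none 2-fold apart, with the mitotic kinase gene *CDKB2;1* at 81.7 and 64.6 FPKM.

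Photosynthesis genes were higher in *cbp20* roots. Of the 18 light-harvesting and Rubisco small subunit loci with a ratio 12 were higher in *cbp20* and none was lower, against 4.69% and 3.56% of all loci, with a median log2 ratio of 1.13 in air roots, 1.92 in ethylene roots and 0.35 in air shoots. *CAB1*, which encodes the light-harvesting protein LHCB1.3, lay at 65.5 and 164 FPKM in air roots and at 27.9 and 236 FPKM in ethylene roots, beside 6192 and 7757 FPKM in air shoots. *LHB1B1* lay at 4.03 and 20.1 FPKM and *LHCA1*, of photosystem I, at 7.09 and 22.3 FPKM, whereas *LHCB4.3* lay at 18.0 and 16.8 FPKM. The summed level of the list in air roots was 1.81% of that in air shoots in Col-0 and 2.94% in *cbp20*. Of the chlorophyll synthesis genes 2 of 12 were higher, the magnesium chelatase subunit *CHLH* (*GUN5*) at 1.57 and 4.97 FPKM and *CRD1* at 9.80 and 22.2 FPKM. In RNA from whole organs, more cells of a type and more RNA per cell cannot be told apart.

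The same direction was seen in loci chosen by their Col-0 levels in shoots and roots. For shoot-enriched loci this choice asks for low levels in Col-0 roots. The ratio divides by Col-0 roots, so the choice is not independent of it. Of the 386 loci with at least 20 FPKM in shoots and 20-fold or more above roots in Col-0 in ethylene, libraries that the air comparison does not use, 253 had a ratio in air roots. Of these 101 were higher in *cbp20*, 7 were lower and 216 lay above 0, with a median of 0.83. Of 217 loci enriched in roots by the same rule 197 had a ratio, and these had a median of 0.02, with 8 higher and 21 lower. The shoot-enriched loci make up 101 of the 756 higher loci and 7 of the 574 lower ones, and 14 of the 18 photosynthesis loci are among them. In air shoots their median was -0.01. Whether RNA of shoot cells in the root samples had a part in these ratios was not tested. Without the shoot-enriched loci 655 loci were higher and 567 lower, and the photosynthesis list had a median of 0.62 with 0 higher.

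**Figure D4:**
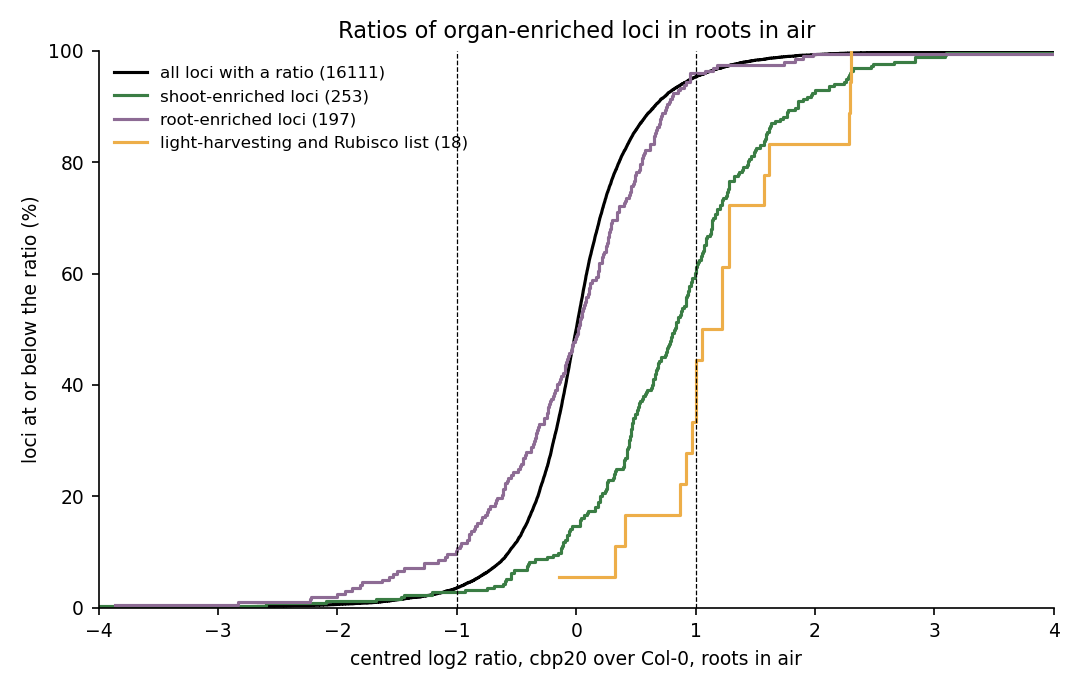
Share of loci at or below each centred log2 ratio of *cbp20* to Col-0 in air roots, in percent, for all 16111 loci, 253 shoot-enriched loci, 197 root-enriched loci and the 18 loci of the light-harvesting and Rubisco list. The shoot-enriched curve lies to the right, with a median of 0.83, and the root-enriched curve crosses the curve of all loci near 0.

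Most of the listed left-over seed transcripts with a ratio were lower in *cbp20* air roots. Of 13 seed storage and oil body loci 7 had a ratio, of which 5 were lower and 1 was higher, with a median of -1.24. Of all loci 4.69% were higher and 3.56% lower. The storage globulins *CRA1*, at 67.0 and 9.92 FPKM, and *CRU3*, at 27.2 and 1.07 FPKM, were also lower in ethylene roots, at 26.1 and 8.57 FPKM and at 6.82 and 1.83 FPKM. The oil body protein gene *OLEO2* lay at 26.0 and 12.4 FPKM in air roots and at 7.03 and 9.85 FPKM in ethylene roots. *GEA6*, also called *EM6* and a late embryogenesis gene, was the higher one, at 11.6 and 24.7 FPKM. The list as a whole did not keep this direction in ethylene roots. Of 8 loci with a ratio there 6 lay above 0, 2 were higher and 2 lower, and the median was 0.30.

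The stress and nutrient lists are given against 4.69% of all loci higher and 3.56% lower. Of 8 heat shock genes 3 were lower, with a median of -0.71, among them the small heat shock protein gene *HSP17.6A* at 10.3 and 1.81 FPKM and *HSP17.4* at 8.29 and 2.85 FPKM, and the median in ethylene roots was -0.95. Of 18 iron uptake and storage loci 4 were higher and none was lower. They were the ferric reductase *FRO2* at 11.5 and 26.7 FPKM, the iron-deficiency regulator *BHLH100* at 5.43 and 14.8 FPKM, and the ferritin genes *FER1* at 49.3 and 113 FPKM and *FER4* at 2.82 and 5.91 FPKM. The joined locus of the iron transporters *IRT2/IRT1* lay at 190 and 370 FPKM. *FRO2* and *BHLH100*, which serve uptake, and the ferritins, which store iron, had the same direction in ethylene roots, where *FRO2* lay at 6.46 and 17.59 FPKM and *FER1* at 48.9 and 95.7 FPKM.

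Of 9 sulfur genes the transporter *SULTR1;1* was higher, at 1.57 and 6.37 FPKM, and *APR3*, at 63.5 and 29.9 FPKM, and *LSU1*, at 25.1 and 12.7 FPKM, were lower. The phosphate, defence and touch lists had 1 higher and at most 1 lower locus each, so that nothing is read from their counts. Of 11 phosphate genes *RNS1*, a ribonuclease, was higher, at 10.4 and 23.5 FPKM, and AT5G03545, a non-coding RNA of phosphate starvation, was lower, at 99.7 and 42.8 FPKM. Of 13 defence genes *WRKY40* was higher, at 2.77 and 6.45 FPKM, but lay at 5.54 and 4.67 FPKM in ethylene roots. *WRKY70* was lower, at 28.6 and 10.2 FPKM, and at 41.4 and 19.5 FPKM in ethylene roots. Of 12 touch and early stress genes the 1 past the mark was *TCH4*, a cell wall enzyme, at 13.2 and 32.4 FPKM.

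The hormone lists too are given against 4.69% of all loci higher and 3.56% lower. Among them, abscisic acid genes lay slightly above Col-0. Of 20 loci 16 had ratios above 0, the median was 0.45 and none passed the 2-fold mark. The phosphatase gene *HAI1* lay at 63.0 and 106 FPKM and the response gene *RD29B* at 51.7 and 95.7 FPKM. In ethylene roots the median was 0.53, with 4 of 18 loci higher and 0 lower, and in air shoots the median was -0.11. Of 21 ethylene signalling and feedback genes 1 was higher, the receptor gene *ERS2* at 2.16 and 7.04 FPKM, and none was lower, with a median of -0.08. In ethylene roots 0 of the 21 were higher and 2 were lower. *EIN2* lay at 35.7 and 40.9 FPKM, *EIN3* at 64.2 and 70.8 FPKM and *CTR1* at 20.9 and 21.4 FPKM in air roots, so these core genes were close to equal without ethylene. Of 20 Aux/IAA and GH3 loci 3 were higher, *IAA6*, *IAA10* and *GH3.3*, with *IAA10* at 4.17 and 11.4 FPKM. Of 12 jasmonate loci 1 was higher, the repressor gene *JAZ10*, at 3.90 and 14.1 FPKM in air roots and 3.06 and 12.5 FPKM in ethylene roots. With 1 higher locus each, nothing is read from the counts of the ethylene and jasmonate lists.

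Of 11 circadian clock genes 2 were higher and 1 lower, against 4.69% and 3.56% of all loci, and nothing is read from so small a count. *PRR5* lay at 4.34 and 17.2 FPKM in air roots and 3.51 and 12.2 FPKM in ethylene roots. *PRR9* lay at 1.65 and 4.45 FPKM, and *ELF4*, an evening gene, at 76.3 and 32.5 FPKM in air roots and 34.9 and 17.7 FPKM in ethylene roots. The 16 SR splicing factor genes, whose proteins help to choose splice sites, had a median of -0.29, with 14 below 0 and none 2-fold apart, and a median of -0.22 in ethylene roots. *SR34* lay at 93.9 and 73.4 FPKM and *SR30* at 77.9 and 105 FPKM. The 10 constitutive reference genes had a median of -0.12, with none 2-fold apart, and *ACT2* lay at 1106 and 996 FPKM and *UBQ10* at 1637 and 1664 FPKM.

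**Figure D5:**
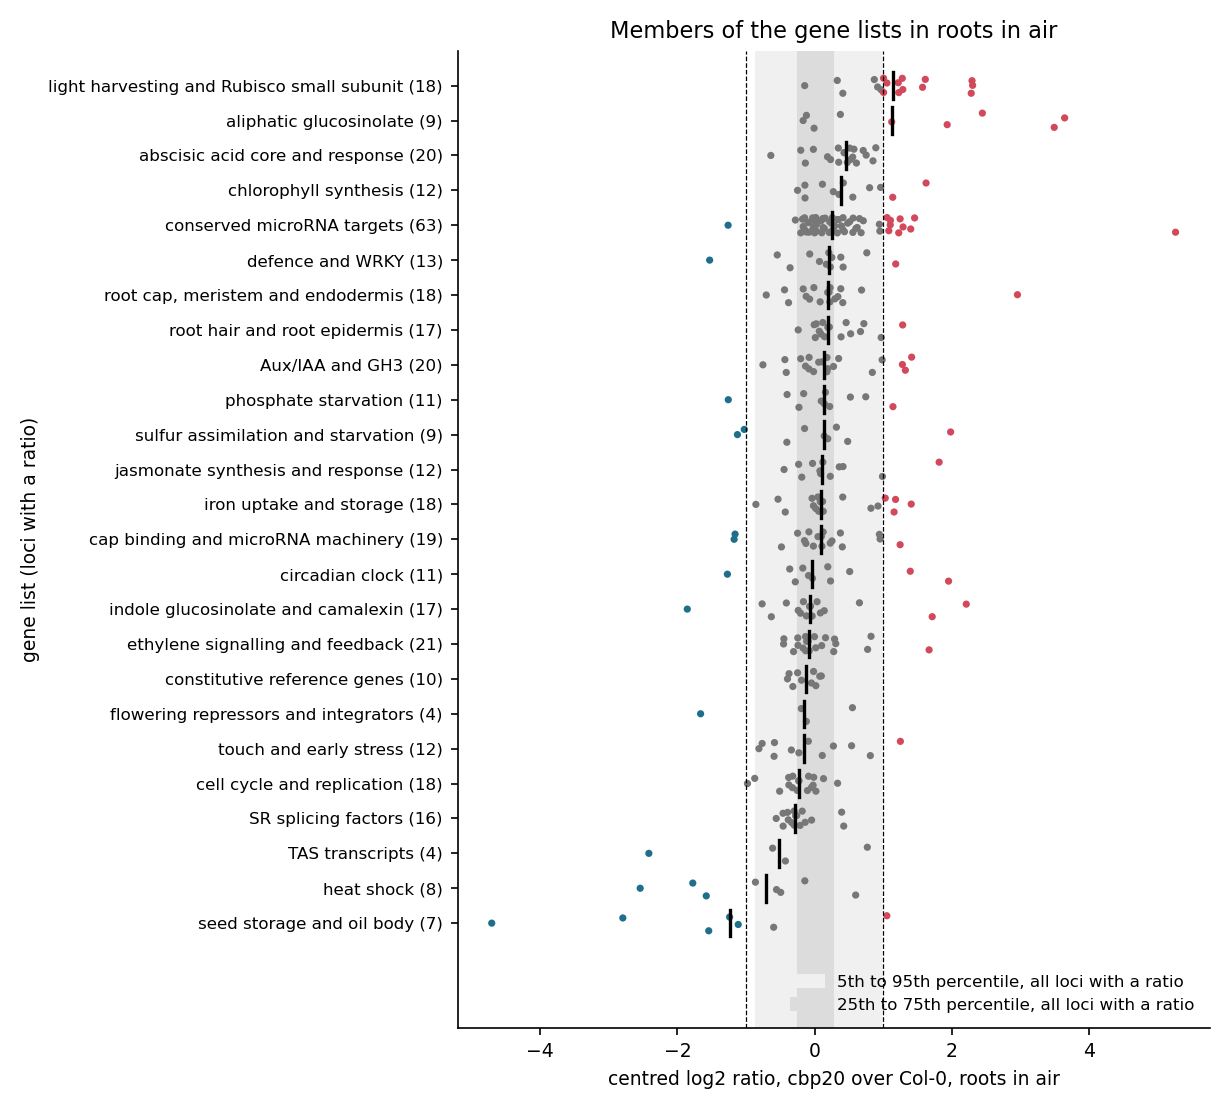
Centred log2 ratio of *cbp20* to Col-0 in air roots for every locus with a ratio in the 25 gene lists, ordered by the list's median (black bar). Points beyond the dashed 2-fold lines are coloured, and the grey bands run from -0.85 to 0.97 (5th to 95th percentile of all 16111 loci) and from -0.25 to 0.27 (25th to 75th); the light-harvesting list (median 1.13) and the seed storage list (median -1.24) lie at the ends.

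Some loci were present in 1 genotype alone, with 5 FPKM or more in it and under 0.5 FPKM in the other. Of 13371 loci with 5 FPKM or more in either genotype, 74 (0.553%) were present in *cbp20* air roots alone and 43 (0.322%) in Col-0 air roots alone. Of the 74, 10 were microRNA genes, and of the 43, 2 were. Among the 17568 loci with 1 FPKM or more in either genotype 35 were microRNA precursor genes, but that minimum is lower than the 5 FPKM used here. The 10 and the 2 are therefore not set against that share. The same pattern was seen in ethylene roots for 11 of the 74 and 10 of the 43. In all 4 pairs of groups it was held by 3 of the 74, among them *MIR403* and *MIR396a*, and by 1 of the 43, *FLC*. The highest levels in *cbp20* air roots were not repeated in ethylene roots. AT2G10450 lay at 70578 FPKM and AT2G26220 at 56462 FPKM in *cbp20* air roots and at no more than 2.25 FPKM in every other group. AT4G34035 lay at 607 FPKM, *MIR161* at 198 FPKM and AT4G23271 at 188 FPKM in *cbp20* air roots and at 0.00132 FPKM or less in Col-0 air roots and in both ethylene root groups. In ethylene shoots *MIR161* was present in *cbp20* alone again, at 214 FPKM, and AT4G23271 lay at 82.7 FPKM in *cbp20* and 0 in Col-0, but at 35.1 FPKM in Col-0 air shoots. In Col-0 air roots alone the highest were AT3G08520 at 349 FPKM, AT4G03295 at 286 FPKM, AT4G22785 at 268 FPKM, AT1G74456 at 152 FPKM and AT4G05071 at 131 FPKM. Of these AT4G03295 and AT4G05071 were also at 0 in *cbp20* and above 0 in Col-0 in ethylene roots. AT1G74456 lay the other way there, at 223 FPKM in Col-0 and 1799 FPKM in *cbp20*, but at 2812 and 162 FPKM in ethylene shoots. In ethylene shoots AT3G08520 and AT4G03295 were at 0 in Col-0 and at 2512 and 1132 FPKM in *cbp20*. By annotation AT4G34035 is a transfer RNA gene, and AT4G03295 and AT1G74456 are small nucleolar RNA genes. AT4G22785 is a pseudogene and AT2G26220 a transcribed pseudogene, and the *MIR161* locus spans 90 bases. A level listed at 0 can be a failed estimate at a short locus, so presence in 1 genotype alone describes the listed values only.

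The very largest ratios also stood alone. *CKX6*, a cytokinin oxidase, lay at 1.16 FPKM in Col-0 and 90744 FPKM in *cbp20* air roots, and at 1.34 and 0.138 FPKM in ethylene roots. *PDE312* lay at 1.90 and 24201 FPKM in air and 3.69 and 2.42 FPKM in ethylene, *HIPP22* at 21.9 and 13232 FPKM in air and 26.7 and 30.9 FPKM in ethylene, and the aquaporin *DELTA-TIP* at 880 and 51345 FPKM in air and 519 and 671 FPKM in ethylene. AT1G64195, the last of the 5 highest, lay at 1.43 and 866 FPKM. On the other side AT4G37190 lay at 13208 and 2.95 FPKM in air and 4.84 and 5.56 FPKM in ethylene. AT1G03935, AT5G53380, AT4G33500 and AT1G12290 were also lower in *cbp20* in air, and higher or without a ratio in ethylene. In all, 14 loci had an air-root value at least 10 times the median of their 4 root values, 10 of them higher and 4 lower in *cbp20*. What lies behind these values was not tested.

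Neighbours of *CBP20* were examined for differences that go with the mutated site. Of 27 loci within 50 kb 16 had a ratio, with a median of 0.09, and 5 were 1.5-fold or more apart. Of all loci 11.7% were higher and 9.45% lower by this mark, so nothing is read from the count. The adjacent genes *GLK2*, at 5.74 and 4.82 FPKM, and *ERF9*, at 4.64 and 5.14 FPKM, were not among the 5. The cell wall protein gene *FLA13* lay at 19.8 and 68.2 FPKM in air roots and 37.3 and 59.1 FPKM in ethylene roots. The others were *CRA1*, described among the seed transcripts, AT5G44310 at 4.03 and 1.66 FPKM, AT5G44230 at 1.24 and 2.08 FPKM, and AT5G44260 at 1.86 and 3.29 FPKM. AT5G44310 and AT5G44230 lay the other way in ethylene roots, at 0.406 and 0.706 FPKM and at 1.66 and 1.21 FPKM. AT5G44260 lay at 11.4 and 18.1 FPKM there.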

How the data were processed

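Poly(A) RNA of 16 libraries, 2 for each of 8 groups, had been sequenced. Per the submitters' processing notes reads were handled with TopHat2 (2.0.9) and Cuffdiff (2.2.1) on TAIR10. The authors deposited 1 FPKM value per locus and group, pooled over both libraries, in 4 tables, each normalized by itself. The tables also hold the authors' own fold changes, p-values and q-values for ethylene against air, which were not used. Values per library were not analysed here, so leaving out a library was not possible. The paper calls the 2 libraries of a group biological duplicates.

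Tables were joined on gene name and locus. Of 35814 rows 1729 without a gene name, which held 72.6% of the summed FPKM in Col-0 and 83.7% in *cbp20* air roots, and 2952 with a repeated name were left out. The other 31133, of which 1632 join several genes, were used. Ratios needed 1 FPKM in both genotypes and were centred on their median. The 2-fold mark is stricter than a mark of 1.5-fold because nothing could be tested. Of 33989 gene names 33249 matched RefSeq (TAIR10.1), which gave symbols and sequences, while locus coordinates are those of the tables.

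Besides *CBP20*, the genes named were the 10 highest and 10 lowest single-gene loci repeated in ethylene roots, the 5 and 5 most extreme that were not, list members past 2-fold (up to 4 each way) and members needed to describe a list, the 5 highest loci present in 1 genotype alone, the 10 and 10 furthest in all 4 pairs, and neighbours of *CBP20*. More precursors than that, and *IPMI2*, were named after their values had been seen. Members and gene lists were chosen with earlier results of these data known. Python 3.11.15, numpy 2.4.6, pandas 2.3.3 and matplotlib 3.10.9 were used, and the calculations were tested on simulated data. The minimum level, the fold, the pseudocount, joined loci, repeated names and the limits for presence were varied.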

Additional observations from a re-analysis of the deposited data

How the results depend on the processing

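No paired analysis was possible because each group has 1 pooled value. Leaving out each replicate and a fit with the replicate number as a block had been planned and were not run for the same reason. Of 930 values recomputed for 88 results under 14 alternatives 840 moved by less than 0.2 on the log2 scale or 1.5 times for a count, 89 moved further and 1 changed sign. Of 271 list medians 260 stayed within that limit.

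With a 1.5-fold mark 1886 loci were higher and 1523 lower in *cbp20*, 767 and 614 of them were repeated in ethylene roots, 261 and 146 passed in all 4 pairs, and 17 microRNA targets were higher. With a 3-fold mark the counts were 238 and 191, 137 and 117, and 18 and 4, with 1 precursor lower, 1 target higher, 4 light-harvesting loci higher and 2 seed loci lower. With at least 10 FPKM in both genotypes they were 180 and 131, 111 and 84, and 29 and 14. The aliphatic glucosinolate median then changed sign to -0.041 with 0 loci higher, because its higher members lay under 10 FPKM in Col-0. Under that minimum 1 precursor was higher and 0 lower, with a median of 0.63, the targets had a median of 0.040 with 0 higher, and 1 seed locus was lower.

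Without a minimum level 1747 loci were higher and 1437 lower, 839 and 671 were repeated, and 154 and 113 passed in all 4 pairs. The precursors then had 14 higher and a median of 1.75, and the seed list a median of -2.80 with 10 lower. On the log2(FPKM + 1) scale 24 precursors were higher and 4 lower with a median of 1.98, 6 targets were higher, and the seed median was -1.61 with 9 lower. With single-gene loci alone the aliphatic median was 0.75. With repeated names kept 281 and 180 loci were present in 1 genotype alone and the precursor median was 1.01. With limits of 10 and 0.1 FPKM 41 and 22 were present alone.

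Further alternatives were chosen after seeing the data. Without shoot-enriched loci the light-harvesting median was 0.62 with 0 higher. With a ratio in ethylene roots required as well, 1 precursor was lower with a median of 2.17, and the aliphatic median was 0.37 with 3 higher. For the other values that moved the cause was not tested. The tables give no depth, so no counting interval could be given, and differences at low levels are the least certain.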
